A study of Mus musculus with 24 samples.

Results

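Between day 3 and day 7 the Sox17 effect, meaning the level in Sox17 libraries over the level in control libraries, changed for 2113 of 14804 tested genes (14.3%). Among the gene lists with the most called members were the cell cycle and the contractile apparatus, whose called members all had a higher effect at day 7, and complement, acute phase and fibroblast matrix genes, most of whose called members had a lower one. In each of these lists more members were called between the days in control cells than in Sox17 cells. The change was computed for each gene as Sox17 over control at day 7 minus the same ratio at day 3, on the log2 scale. It rests on 12 of the 24 libraries, and the 14804 genes are those of 35727 in the table that passed a filter on low counts. A positive value means that the effect was higher at day 7.

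The cells were mouse heart fibroblasts, and messenger RNA was sequenced in bulk. The groups were Sox17 at day 7, Sox17 at day 3, control at day 7 and control at day 3, with 3 libraries each. All of them were grown in EGM2, a medium made for endothelial cells, so the control cells differed from freshly isolated fibroblasts in that respect too. Libraries labelled Erg and SEG, at the same days, served here to estimate the spread between replicates; the labels give SEG no fuller name. The labels do not say how Sox17 was delivered, nor whether replicates were separate cultures or animals, and the p-values rest on the spread among these libraries, which could be technical alone. In bulk RNA, fewer cells of a type and less RNA per cell cannot be told apart.

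Sox17 is a transcription factor of the SOX family that binds DNA through a high mobility group box. It is known for its part in forming endoderm and in arterial endothelium, where it acts with Notch signalling. Fibroblasts make collagen and proteoglycan matrix and complement proteins, and in culture they can take up a contractile, smooth muscle-like state and divide, or leave the cell cycle.

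Total counts per library ran from 18794422 to 44586227 over all 24 libraries. One of the 12 libraries stood apart. In replicate 1 of Sox17 at day 7, 8.32% of the counts fell on ribosomal protein genes, against 3.29% to 4.44% in the other 11, and 0.880% fell on mitochondrial genes, against 1.39% to 1.79%. Results are therefore also given without that library where it moves them. Among the libraries used only for the spread, replicate 1 of SEG at day 7 had 5.66% on ribosomal protein genes, against 3.81% and 3.83% in replicates 2 and 3. Of 5 endothelial markers (Cdh5, Pecam1, Kdr, Tie1 and Emcn), the summed level was 148 to 375 CPM (counts relative to the TMM-scaled library total) in Sox17 libraries at day 7 and 507 to 605 CPM at day 3, against 2.10 to 3.09 CPM in control at day 7 and 1.59 to 2.29 CPM at day 3. Kdr and Cdh5 made up most of the sum with Sox17, with means of 148 and 135 CPM at day 7 and 377 and 171 CPM at day 3. Emcn also had a lower mean at day 7 (3.16 against 4.51 CPM). Pecam1 (2.93 against 2.08 CPM) and Tie1 (4.66 against 1.65 CPM) had higher ones. The sum of 5 fibroblast markers (Pdgfra, Dcn, Col1a1, Col3a1 and Ddr2) was 3892 to 6329 CPM and 8332 to 8542 CPM in Sox17 libraries at day 7 and day 3, against 14189 to 15506 CPM and 17851 to 19630 CPM in control. Col1a1 made up most of the fibroblast sum with Sox17, with a mean of 4354 CPM at day 7. The other markers differed from control at day 7 by unlike amounts. Means with Sox17 and in control were 57.2 and 1266 CPM for Dcn, 498 and 4703 CPM for Col3a1, 78.1 and 801 CPM for Pdgfra, and 375 and 401 CPM for Ddr2. Fibroblast markers were thus present in every library, as the labelled cell type has it.

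Sox17 itself (ENSMUSG00000025902, mm10 chr1:4490931-4497354, minus strand, protein coding) had 616, 1303 and 1322 CPM in Sox17 libraries at day 7, and 1549, 1618 and 1653 CPM at day 3. No count fell on it in any of the 6 control libraries; 3 counts over the 3 libraries of a group set the floor, 0.0474 CPM at day 7 and 0.0520 CPM at day 3, which covers counting error alone. The 3 libraries at day 7 lay below the 3 at day 3, with replicate 1 farthest below, but the difference between the days did not pass the test (log2 change -0.57, edgeR adjusted p = 0.14). Against the floor, the level was at least 22781-fold higher than in control at day 7 and at least 30869-fold higher at day 3. With control at 0 at both days, a change of the effect has no meaning for this gene. A count per gene cannot separate an introduced copy of Sox17 and the endogenous one.

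Each test was edgeR's quasi-likelihood test with Benjamini-Hochberg adjustment over the 14804 genes, and a gene was called at an adjusted p under 0.05. The effect was higher at day 7 for 1127 genes (7.61% of those tested) and lower for 986 (6.66%), together 14.3%; at an unadjusted p under 0.05, 3997 genes passed. The median change over all tested genes was -0.00. For comparison, day 7 against day 3 called 29.5% of genes in Sox17 cells (2455 higher and 1913 lower) and also 29.5% in control cells (2385 higher and 1983 lower). Sox17 against control called 54.5% of genes at day 7 and 40.4% at day 3. These comparisons share libraries with one another.

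The called genes were sorted by which cells passed the test of day 7 against day 3. For 561 genes (26.5%) Sox17 cells were called and control cells were not, 309 of them with a higher effect at day 7 and 252 with a lower one. For 908 genes (43.0%) control cells were called and Sox17 cells were not, 469 higher and 439 lower. Both were called in opposite directions for 220 genes (10.4%) and in the same direction, by different amounts, for 358 (16.9%). For the other 66 (3.12%) neither was called alone. Without replicate 3 of Sox17 at day 7 the order turned, with Sox17 cells alone at 1194 genes and control alone at 1121. By size, without regard to calls, the move was wider in control cells for 1337 of the 2113 genes (63.3%) and wider in Sox17 cells for 776 (36.7%).

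Without replicate 1 of Sox17 at day 7, 2809 of 15023 tested genes were called (18.7%), 1422 higher (9.47%) and 1387 lower (9.23%). Of the 2113 genes, 1953 (92.4%) were called again in the same direction, 160 were not, 856 others were added, and none called in both fits changed sign. Control cells alone then accounted for 1150 genes and Sox17 cells alone for 576, while both in the same direction counted 672 and both in opposite directions 348. The class of a gene was the same in both fits for 1520 of the 1953 (77.8%).

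**Figure D1:**
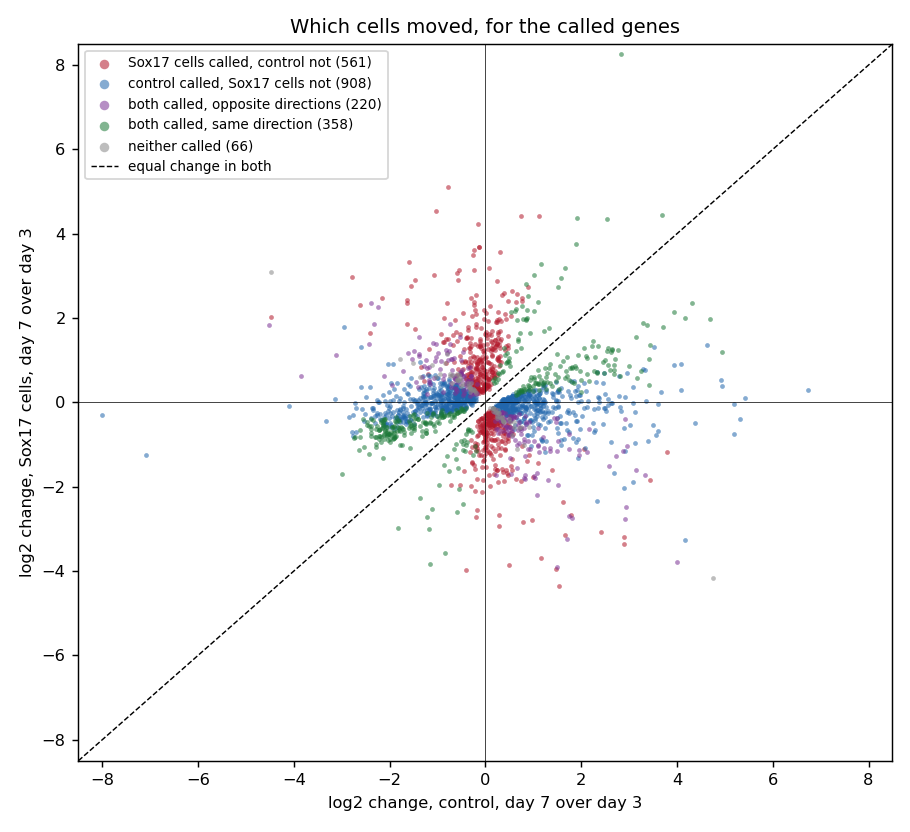
Day 7 over day 3 for the 2113 called genes, with the log2 change in control cells on the horizontal axis and in Sox17 cells on the vertical axis, coloured by which cells passed the test. Genes on the dashed line would have moved alike; 908 genes spread along the horizontal axis (control moved) and 561 along the vertical one (Sox17 cells moved).

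Cell cycle genes made the most uniform group. Of 37 tested members, 36 (97.3%) had a higher Sox17 effect at day 7 and none a lower one, with a median change of 1.36; the member not called was E2f1 (0.38, adjusted p = 0.0733), a transcription factor of S phase entry. All 37 fell between day 3 and day 7 in control cells, by 0.48 to 2.48 on the log2 scale with a median of -2.10. In Sox17 cells 24 fell, with a median of -0.52. The median Sox17 effect of the list was 1.29 at day 7 and -0.19 at day 3.

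Ccna2 (mm10 chr3:36564865-36572150, minus strand), the cyclin of S phase and of mitotic entry, had 36.8, 40.2 and 43.5 CPM in Sox17 libraries at day 7 and 59.8, 59.9 and 55.8 CPM at day 3. It had 10.1, 11.8 and 14.2 CPM in control at day 7 and 72.3, 63.7 and 65.5 CPM at day 3. No 2 of the 4 groups overlapped: both kinds of cells were lower at day 7, control far more so, by 2.48 against 0.54 on the log2 scale. The change of the effect was 1.93 ± 0.15 (approximate SE, the log2 change divided by the square root of its F statistic; adjusted p = 3.3e-08). Mcm5, a subunit of the helicase that unwinds replication origins, had 45.4, 31.8 and 34.4 CPM in Sox17 libraries at day 7 and 41.4, 42.0 and 50.1 CPM at day 3, against 8.33, 9.64 and 10.2 CPM in control at day 7 and 42.3, 45.8 and 48.0 CPM at day 3. Its Sox17 libraries overlapped between the days and its control libraries did not, and the change was 2.01 ± 0.17 (adjusted p = 7.13e-08).

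Mki67, the antigen read as a proliferation marker, changed by 1.83, Top2a, the topoisomerase that untangles mitotic chromosomes, by 1.47, and Foxm1, a transcription factor of the mitotic programme, by 1.34. Cdk1, the kinase that drives mitosis, had 57.9, 40.3 and 44.1 CPM in Sox17 libraries at day 7 and 56.9, 57.1 and 60.2 CPM at day 3, against 17.3, 18.2 and 20.6 CPM in control at day 7 and 59.7, 63.5 and 63.2 CPM at day 3, a change of 1.44 ± 0.18. Birc5, which encodes survivin of the chromosomal passenger complex, had 34.4, 13.3 and 14.9 CPM in Sox17 libraries at day 7, so replicate 1 lay far above the other two; its change was 2.16 with that library and 1.59 without it. Without replicate 1 of Sox17 at day 7 the list again had 36 members called higher and none lower.

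Genes of the mitotic programme share short promoter elements, so windows around gene starts were read for 2 such elements, chosen after the results were seen: TTTGAA, the core of the cell cycle homology element, and CCAAT, the box bound by NF-Y, each on both strands. The windows (RefSeq, GRCm38.p6) run from 250 bases before to 50 after a start. Of 31 windows from the 29 list members with an entry, 13 (41.9%) held TTTGAA and 25 (80.6%) held CCAAT, against 12.5% and 37.2% of 14240 windows of tested genes. Cdk1 (chr10:69352863-69353162, minus strand) and Ccnb2, a mitotic cyclin (chr9:70421505-70421804, minus strand), are shown because each held 2 copies of the first and 3 of the second, which are in capitals on whichever strand they lie (TTTGAA or its complement, CCAAT or ATTGG).
Cdk1: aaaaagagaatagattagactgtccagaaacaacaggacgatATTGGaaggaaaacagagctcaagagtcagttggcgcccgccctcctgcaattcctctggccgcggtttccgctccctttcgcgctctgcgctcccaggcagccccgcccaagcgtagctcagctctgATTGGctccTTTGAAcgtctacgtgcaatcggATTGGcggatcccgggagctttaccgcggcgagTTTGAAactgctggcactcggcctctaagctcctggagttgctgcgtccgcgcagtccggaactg
Ccnb2: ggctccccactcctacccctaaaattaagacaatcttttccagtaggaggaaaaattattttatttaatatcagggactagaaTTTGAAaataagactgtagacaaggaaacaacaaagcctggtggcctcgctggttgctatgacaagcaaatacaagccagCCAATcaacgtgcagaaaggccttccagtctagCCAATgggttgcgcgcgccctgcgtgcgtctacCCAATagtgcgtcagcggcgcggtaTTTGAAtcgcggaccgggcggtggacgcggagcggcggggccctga
Ccnb2 had 24.9, 20.2 and 23.0 CPM in Sox17 libraries at day 7 and 35.7, 32.1 and 33.9 CPM at day 3, against 9.64, 10.6 and 11.5 CPM in control at day 7 and 47.4, 47.3 and 45.1 CPM at day 3. Sox17 lay below control at day 3 and above it at day 7, without overlap at either day. A match of letters does not show that a factor binds there.

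The letters of the SOX core (ACAAAG or ATTGTT, both strands) were read in the same way for genes of which Sox17 cells alone were called. They were in 17.8% of 315 windows of genes with a higher effect at day 7 and in 20.2% of 262 windows of genes with a lower one, against 19.2% of windows of tested genes. These shares are descriptions of a window of 300 bases, and they say nothing of sites elsewhere.

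Smooth muscle contractile genes moved in the same sense as the cell cycle. Of 23 tested members, 11 (47.8%) had a higher effect at day 7 and none a lower one, with a median change of 0.52; in control cells 13 fell and 4 rose between the days, and in Sox17 cells 3 fell and 6 rose. Tagln (mm10 chr9:45929619-45936058, minus strand), which encodes the actin-binding protein transgelin, had 1350, 681 and 666 CPM in Sox17 libraries at day 7 and 692, 863 and 1001 CPM at day 3. It had 24.3, 24.2 and 30.2 CPM in control at day 7 and 243, 214 and 240 CPM at day 3. The Sox17 libraries overlapped between the days, and the control libraries of day 7 all lay far below those of day 3. Its change was 3.22 ± 0.31 (adjusted p = 4.57e-07).

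Acta2, smooth muscle alpha-actin, had 2988, 1804 and 1806 CPM in Sox17 libraries at day 7 and 1124, 1461 and 1674 CPM at day 3, against 70.5, 58.3 and 65.5 CPM in control at day 7 and 300, 260 and 287 CPM at day 3. The Sox17 libraries of day 7 lay above those of day 3 and the control libraries below theirs, and the change was 2.76 ± 0.25. Cnn1, which encodes the actin-binding protein calponin, had 93.4, 48.1 and 44.8 CPM in Sox17 libraries at day 7 and 21.0, 30.3 and 34.7 CPM at day 3, against 0.113, 0.182 and 0.0846 CPM in control at day 7 and 1.06, 0.991 and 1.38 CPM at day 3. Its change was 4.25 ± 0.68, with no overlap between the days in either kind of cell. For all 3 genes replicate 1 of Sox17 at day 7 was the highest library; without it the changes were 2.81, 2.47 and 3.83 for Tagln, Acta2 and Cnn1. Of 8 tested pericyte genes, 2 (Mcam and Pdgfrb) were higher and 1, Rgs5, lower, with a median change of 0.11. Mcam, an adhesion molecule also made by endothelium and smooth muscle, changed by 1.99, Pdgfrb by 0.48 and Rgs5 by -1.59. In 12 fits that left out 1 library, Rgs5 lost its call in 9 and Pdgfrb in 5.

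**Figure D2:**
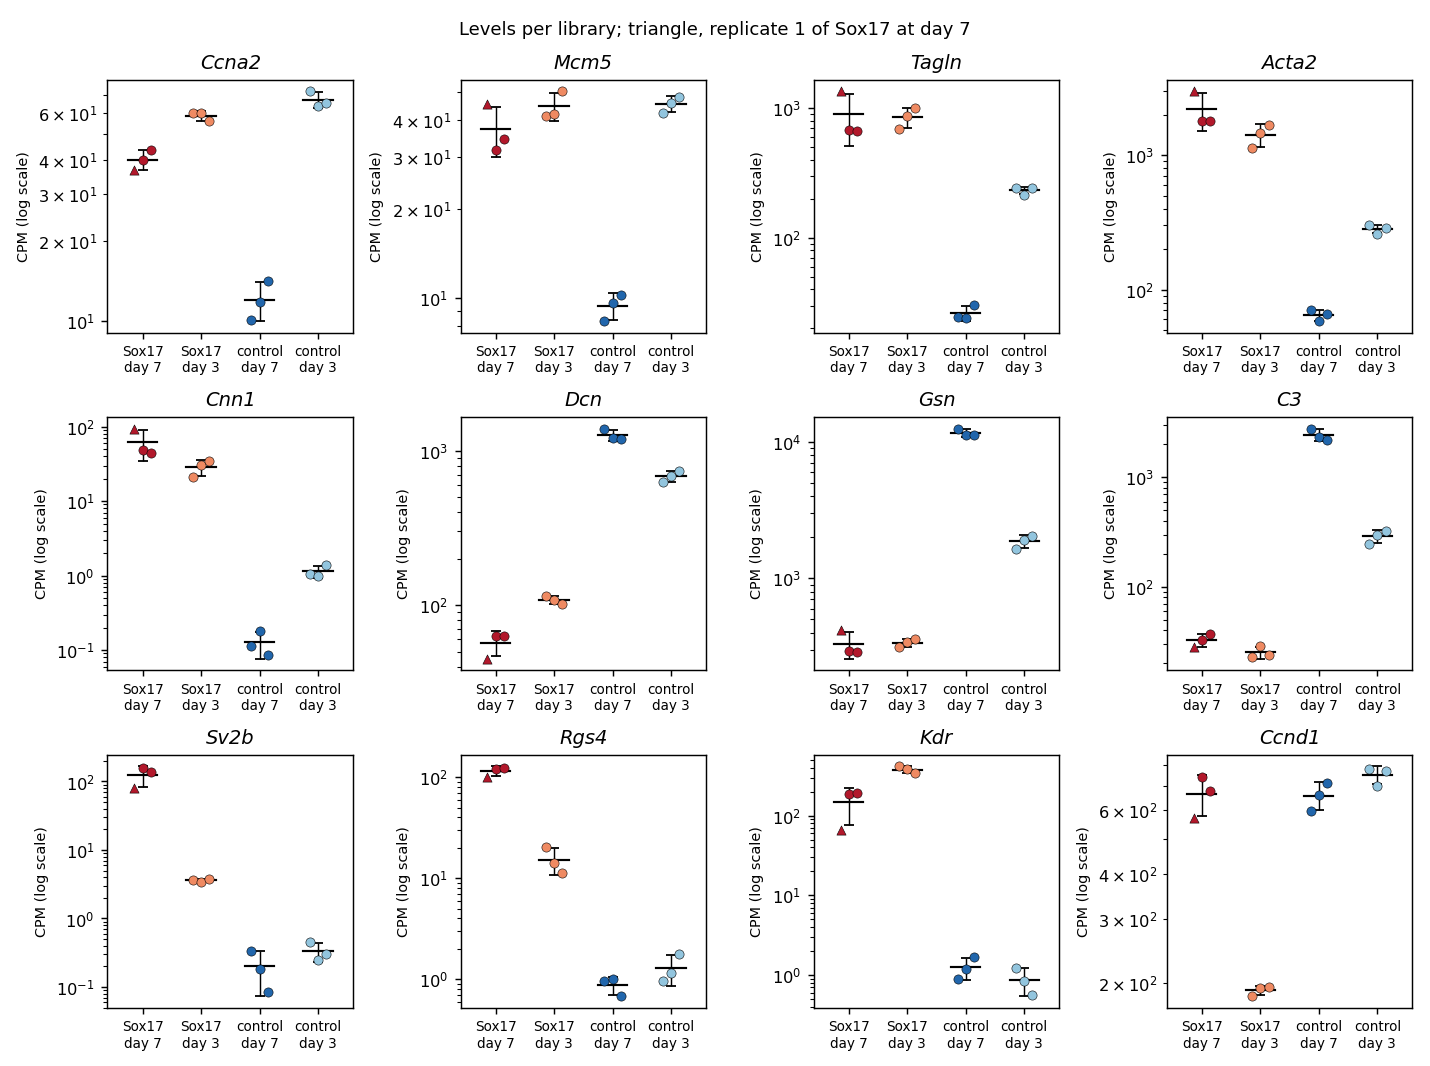
CPM (log axis) of 12 genes in each of the 12 libraries, with Sox17 at day 7 and day 3 to the left of control at day 7 and day 3; the line is the mean, bars are the SD over 3 libraries, and the triangle is replicate 1 of Sox17 at day 7. Ccna2, Mcm5, Tagln and Acta2 dropped in control by day 7, Gsn and C3 climbed in control while Sox17 libraries of the 2 days overlapped, and Sv2b, Rgs4 and Ccnd1 moved in Sox17 cells.

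Complement and acute phase genes moved the other way. Of 25 tested members, 13 (52.0%) had a lower effect at day 7 and 1, Il6, a higher one, with a median change of -1.32. In control cells 19 rose and 2 fell, with a median move of 1.5, and in Sox17 cells 8 rose and 6 fell, with a median of 0.14. C3, the central complement component, had 28.1, 32.5 and 37.1 CPM in Sox17 libraries at day 7 and 23.0, 28.7 and 23.7 CPM at day 3. It had 2776, 2325 and 2211 CPM in control at day 7 and 246, 298 and 322 CPM at day 3. Control rose by 3.08 on the log2 scale; the Sox17 libraries overlapped between the days and moved by 0.38, which was not called (adjusted p = 0.056), for a change of -2.70 ± 0.20 (adjusted p = 2.9e-08).

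C7, a component of the membrane attack complex, had 0 counts in all 3 Sox17 libraries at day 7 and 0.0541, 0.118 and 0 CPM at day 3, against 31.8, 23.4 and 22.1 CPM in control at day 7 and 1.73, 1.54 and 1.54 CPM at day 3. At day 7 it was thus at least 921-fold lower in Sox17 cells (floor of 3 counts over the group), and its fitted change carries no bound. Hp, the haemoglobin-binding acute phase protein haptoglobin, had 0.636, 0.0546 and 0.0756 CPM in Sox17 libraries at day 7 and 0.243, 0.383 and 0.210 CPM at day 3, against 206, 139 and 157 CPM in control at day 7 and 11.5, 15.7 and 21.7 CPM at day 3. Its change was -3.33 (adjusted p = 0.00716), -5.44 without replicate 1 of Sox17 at day 7, and was not called without replicate 2 of Sox17 at day 3. Il33, an alarmin cytokine, rose in control by 2.83 and changed by -3.04 ± 0.40. Cfb, factor B of the alternative complement pathway, changed by -2.72, or by -3.37 without replicate 1 of Sox17 at day 7.

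Further secreted and immune genes were among the widest falls. Ahsg, which encodes fetuin-A, a plasma protein that binds calcium phosphate, had 2.13, 1.23 and 1.21 CPM in Sox17 libraries at day 7 and 1.08, 1.38 and 1.05 CPM at day 3, against 119, 103 and 104 CPM in control at day 7 and 2.85, 4.06 and 3.74 CPM at day 3. Control rose by 4.93 without overlap, Sox17 libraries overlapped, and the change was -4.54 ± 0.32. H2-Q7, a class I histocompatibility gene, changed by -3.74; it shares sequence with its neighbours, and H2-Q5 (-3.19) is one of them, so reads could be split between them and both values are uncertain. Serpina3f, of a family of near-identical protease inhibitors and uncertain for that reason, had 0.159, 0 and 0 CPM in Sox17 libraries at day 7 and 0.0541, 0.118 and 0.126 CPM at day 3, against 11.1, 10.1 and 10.2 CPM in control at day 7 and 0.781, 1.19 and 1.89 CPM at day 3. Its change was -3.55; the value was -7.32 without replicate 1 of Sox17 at day 7, and the call was lost without replicate 2 or replicate 3 of Sox17 at day 3.

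Fibroblast matrix and proteoglycan genes were lower in effect for 13 of 29 tested members (44.8%) and higher for 3 (Tnc, Fbln5 and Ccn1), with a median change of -0.45; without replicate 1 of Sox17 at day 7, 15 were lower and 5 higher. Of the 16 called, both kinds of cells moved in opposite directions for 7 and in the same direction for 7, and control alone for 1. Dcn, the collagen-binding proteoglycan decorin, had 45.0, 63.5 and 63.0 CPM in Sox17 libraries at day 7 and 114, 108 and 101 CPM at day 3, against 1387, 1216 and 1196 CPM in control at day 7 and 630, 686 and 736 CPM at day 3. Neither kind of cell overlapped between the days; Sox17 cells fell by 0.92 and control cells rose by 0.89, for a change of -1.81 ± 0.16 (adjusted p = 1.88e-07). Dpt, the matrix protein dermatopontin, had 9.38, 6.49 and 5.48 CPM in Sox17 libraries at day 7 and 9.41, 9.48 and 9.60 CPM at day 3, against 453, 422 and 404 CPM in control at day 7 and 50.2, 57.7 and 61.1 CPM at day 3. Most of its change of -3.33 ± 0.20 was the rise in control of 2.92. Lum, the proteoglycan lumican, changed by -2.66, with a fall of 1.83 in Sox17 cells.

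Among genes of fibroblast identity the split was more even, with 7 of 25 lower and 5 higher and a median of -0.14. Gsn, the actin-severing protein gelsolin, had 417, 291 and 287 CPM in Sox17 libraries at day 7 and 315, 339 and 358 CPM at day 3, against 12439, 11153 and 11208 CPM in control at day 7 and 1643, 1893 and 2047 CPM at day 3. Only the control libraries separated by day, and the change was -2.66 ± 0.19. Htra3, a secreted serine protease, rose in control by 3.42 and changed by -3.02. Pdgfra, the receptor used to mark fibroblasts, had 38.0, 89.3 and 107 CPM in Sox17 libraries at day 7 and 186, 164 and 144 CPM at day 3, against 850, 813 and 739 CPM in control at day 7 and 633, 651 and 631 CPM at day 3, a change of -1.41 ± 0.35 (adjusted p = 0.0085). Pi16, a marker of adventitial fibroblasts, went the other way with 51.4, 17.1 and 17 CPM in Sox17 libraries at day 7 and 8.19, 6.62 and 6.78 CPM at day 3; its change was 2.01, or 1.27 without replicate 1 of Sox17 at day 7. Col1a1, the main chain of type I collagen, was lower at day 7 in every library of both kinds of cells, and its change of -0.01 ± 0.16 was not called (adjusted p = 0.974). Of 24 fibrillar collagen genes and modifiers, 4 were higher and 2 lower, or 9 and 4 without replicate 1 of Sox17 at day 7.

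Among called genes that reached 10 CPM in a group and had more than 3 counts in each, the second widest rise of the effect lay in Sox17 cells. Sv2b (mm10 chr7:75114894-75309262, minus strand), which encodes a glycoprotein of secretory vesicles, had 79.0, 157 and 139 CPM in Sox17 libraries at day 7 and 3.68, 3.41 and 3.75 CPM at day 3, against 0.340, 0.182 and 0.0846 CPM in control at day 7 and 0.446, 0.248 and 0.307 CPM at day 3. Every Sox17 library of day 7 lay more than an order of magnitude above every other library, while control stayed under 1 CPM, and the change was 5.89 ± 0.61 (adjusted p = 1.29e-06). Coch, the secreted matrix protein cochlin, had 62.2, 68.8 and 66.4 CPM in Sox17 libraries at day 7 and 2.97, 3.35 and 2.78 CPM at day 3, with under 1 CPM in each control library, and changed by 3.69 ± 0.46. Rgs4, which speeds the shutdown of G protein signals, had 100, 121 and 124 CPM in Sox17 libraries at day 7 and 20.4, 14.2 and 11.2 CPM at day 3, against 0.964, 1 and 0.677 CPM in control at day 7 and 0.948, 1.14 and 1.79 CPM at day 3, and changed by 3.48 ± 0.37.

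Adcy1, an adenylyl cyclase, had 30.4, 59.2 and 60.7 CPM in Sox17 libraries at day 7 and 6.14, 5.47 and 4.71 CPM at day 3, against 3.97, 3.77 and 3.51 CPM in control at day 7 and 2.96, 4.61 and 3.02 CPM at day 3, a change of 3.11 ± 0.34. Adra2a, the alpha-2A adrenergic receptor, changed by 4.08 ± 0.67, and Prokr2, a receptor of prokineticins, by 6.36 ± 0.86. Prokr2 had 16.1, 51.3 and 54.3 CPM in Sox17 libraries at day 7 and 13.4, 11.3 and 9.39 CPM at day 3, against 0, 0 and 0.169 CPM in control at day 7 and 1.56, 1.83 and 1.28 CPM at day 3. The fitted value of Prokr2 rests on 4 counts in control at day 7 and was 10.16 without replicate 3 of that group. Epb41l4b, a FERM domain protein, changed by 3.69 ± 0.32; its Sox17 effect was 3.94 at day 7 and 0.26, not called, at day 3.

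Of the 10 widest rises under the same limits on level, 3 moved by over 1.5-fold when replicate 1 of Sox17 at day 7 was left out. Chtf8, a subunit of a clamp loader of DNA replication, had 64.6 CPM in that library and 6.17 and 3.85 CPM in replicates 2 and 3, and 7.41, 6.27 and 8.08 CPM at day 3, against 0.680, 1.14 and 1.02 CPM in control at day 7 and 7.92, 9.66 and 4.71 CPM at day 3. Its change was 4.74 with the library and 2.43 without it. Crabp1, which binds retinoic acid, changed by 4.19 and by 3.54 without it, and Fbxo2, an F-box protein of ubiquitin ligases, by 3.85 and by 3.05. All 3 were called both ways, but Chtf8 was not called with only the 12 libraries of Sox17 and control.

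**Figure D3:**
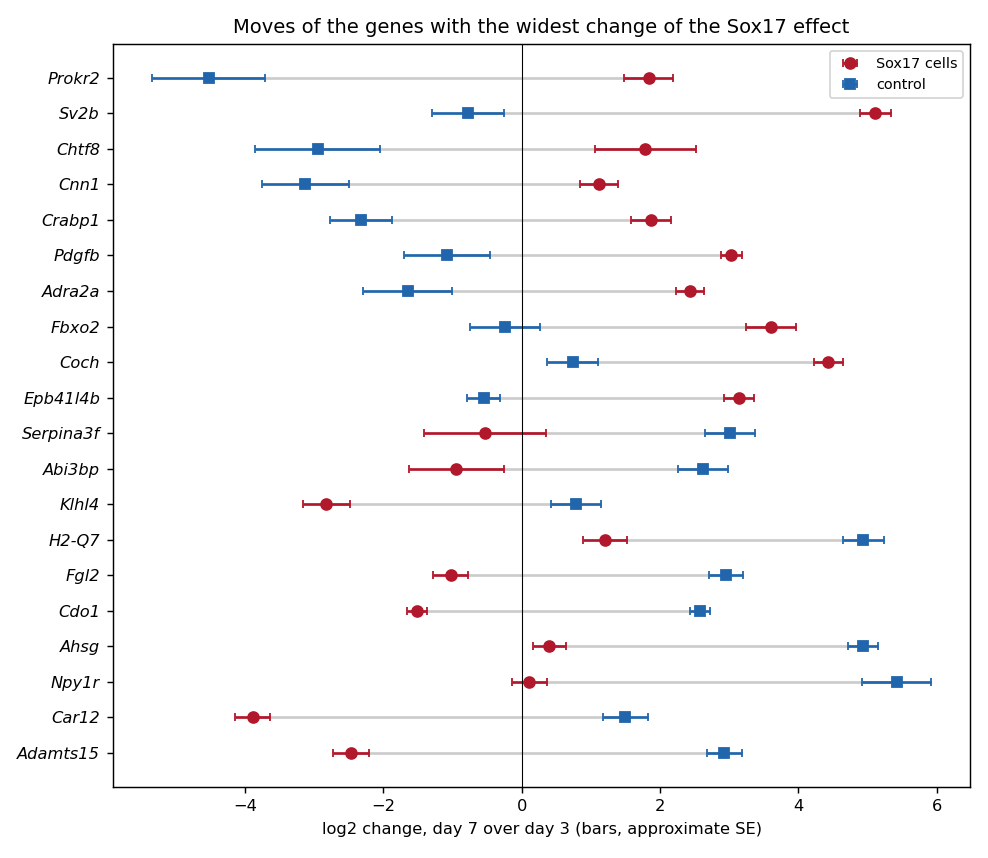
Log2 change from day 3 to day 7 in Sox17 cells (circles) and control cells (squares) for the 10 widest rises and 10 widest falls of the Sox17 effect among genes named by the rule, with approximate SE as bars. Sv2b, Coch, Epb41l4b and Fbxo2 moved in Sox17 cells, Ahsg, Npy1r and H2-Q7 mostly in control, and Adamts15, Car12 and Cdo1 in both, in opposite directions.

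Sox17 cells also led some of the falls. Car12, a membrane carbonic anhydrase, had 1.63, 1.99 and 2.19 CPM in Sox17 libraries at day 7 and 33.2, 27.2 and 25.5 CPM at day 3, against 2.89, 2.55 and 1.40 CPM in control at day 7 and 0.335, 1.04 and 0.972 CPM at day 3. The Sox17 effect was 5.17 at day 3 and -0.23, not called, at day 7, and the change was -5.39 ± 0.41 (adjusted p = 2.9e-08). Alcam, an immunoglobulin family adhesion molecule, had 8.74, 13.5 and 13.5 CPM in Sox17 libraries at day 7 and 46.7, 47.7 and 43.5 CPM at day 3, against 12.8, 13.3 and 13.8 CPM in control at day 7 and 5.13, 4.01 and 4.76 CPM at day 3, so the groups overlapped at day 7 and not at day 3. Klhl4, a kelch-repeat protein, had 4.18, 16.9 and 18.8 CPM in Sox17 libraries at day 7 and 92.3, 97.1 and 91.6 CPM at day 3, and changed by -3.61 ± 0.49. Mbnl3, a splicing regulator of the muscleblind family, was not called against control at day 3 and was lower at day 7 (change -2.37 ± 0.28).

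Other effects shrank while keeping their sign. Osr1, a zinc finger transcription factor of mesenchyme, had 125, 122 and 124 CPM in Sox17 libraries at day 7 and 252, 257 and 256 CPM at day 3, against 29.1, 30.4 and 27.8 CPM in control at day 7 and 14.8, 14.1 and 12.2 CPM at day 3. Its Sox17 effect was 2.09 at day 7 and 4.22 at day 3, with narrow groups that nowhere overlapped, a change of -2.13 ± 0.12. Npy1r, a receptor of neuropeptide Y, overlapped between the days in Sox17 cells and rose by 5.42 in control cells, where it had 0.0558 to 0.102 CPM at day 3; its effect was 2.03 at day 7 and 7.35 at day 3. The effect on Abi3bp, a matrix protein, grew instead, with -6.72 at day 7 and -3.15 at day 3, a change of -3.56; without replicate 1 of Sox17 at day 7 it changed by -2.85, without replicate 3 by -4.58, and without replicate 2 of Sox17 at day 3 its call was lost.

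Genes of IGF signalling counted falls and no rise. Of 17 tested genes in a list of IGF, its binding proteins and related genes, 7 (41.2%) had a lower effect at day 7 and none a higher one, with a median change of -0.73. Control cells alone moved for 4 of the 7, both in opposite directions for 2 and Sox17 cells alone for 1. The 7 include Stc1 and Stc2, which are not IGF binding proteins, and Stc1 lost its call in 8 of 12 fits that left out 1 library. Without replicate 1 of Sox17 at day 7, 7 were again lower and none higher, with a median of -0.39. Igfbp3, a secreted IGF carrier, had 1134, 1620 and 1541 CPM in Sox17 libraries at day 7 and 1904, 1836 and 1825 CPM at day 3, against 163, 146 and 129 CPM in control at day 7 and 56.0, 52.9 and 53 CPM at day 3. It was called in both kinds of cells, down by 0.37 with Sox17 and up by 1.44 in control, a change of -1.81 ± 0.15. Igf1, the ligand, had 298, 350 and 372 CPM in Sox17 libraries at day 7 and 535, 461 and 413 CPM at day 3, against 65.0, 51.7 and 48.4 CPM in control at day 7 and 19.1, 19.7 and 20.7 CPM at day 3. Igf1 and Igfbp3 stayed above control in every Sox17 library at both days, by less at day 7.

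Among core endothelial genes, more called members had a lower effect at day 7 than a higher one. Of 33 tested, 2 (Egfl7 and Vwf, 6.06%) had a higher effect and 7 (21.2%) a lower one, with a median change of 0.10. Without replicate 1 of Sox17 at day 7, 3 were higher and 9 lower, and the median was -0.05. Kdr, the main VEGF receptor of endothelium, had 65.2, 185 and 193 CPM in Sox17 libraries at day 7 and 413, 378 and 339 CPM at day 3, against 0.907, 1.18 and 1.69 CPM in control at day 7 and 1.23, 0.842 and 0.563 CPM at day 3. All 3 Sox17 libraries of day 7 lay below those of day 3 and far above control, and the change was -1.91 ± 0.54 (adjusted p = 0.0204). The change of Kdr was not called without replicate 3 of control at either day, nor with only the 12 libraries of Sox17 and control. Cdh5, the cadherin of endothelial junctions, had 71.6, 162 and 172 CPM in Sox17 libraries at day 7 and 182, 170 and 160 CPM at day 3, with under 1 CPM in each control library. Its change was 1.35 ± 0.71 and was not called (adjusted p = 0.23); without replicate 1 of Sox17 at day 7 it was 1.65 and was called (adjusted p = 0.048). Tek, the angiopoietin receptor, was not called against control at day 3 and lay below it at day 7, with 5.90, 8.73 and 11.4 CPM in Sox17 libraries against 27.3, 23.5 and 22.7 CPM in control, a change of -1.54 ± 0.23. Pecam1, a junctional adhesion molecule, had 2.66, 3.00 and 3.14 CPM in Sox17 libraries at day 7, against 0.794, 1.18 and 0.804 CPM in control, and changed by -1.34 (adjusted p = 0.0144). At day 3 it had 1.81 to 2.46 CPM in Sox17 libraries and 0.0991 to 0.409 CPM in control. Pecam1 was thus higher at day 7 in both kinds of cells, by more in control on the log2 scale.

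Arterial and Notch genes were split, with 6 of 27 higher and 5 lower and a median of 0.11. Sema3g, a semaphorin of arterial endothelium, had 38.6, 40.2 and 47.9 CPM in Sox17 libraries at day 7 and 19.5, 13.7 and 13.8 CPM at day 3, with under 1 CPM in each control library; its change was 2.31 ± 0.61 (adjusted p = 0.0138), not called without replicate 2 or replicate 3 of control at day 3. Jag2, a Notch ligand, had 9.33, 7.88 and 10.1 CPM in Sox17 libraries at day 7 and 0.514, 0.883 and 0.716 CPM at day 3, against 0, 0.273 and 0.169 CPM in control at day 7 and 0, 0.446 and 0.0512 CPM at day 3. Its change was 3.82, or 1.32 and not called without replicate 2 of control at day 3. Hey2, a Notch target, had 1.27, 1.99 and 1.74 CPM in Sox17 libraries at day 7 and 3.00, 2.83 and 2.53 CPM at day 3, against 1.13, 0.864 and 0.677 CPM in control at day 7 and 0.112, 0.446 and 0.205 CPM at day 3, and changed by -2.49, or by -3.17 without replicate 2 of control at day 3. Pdgfb, the ligand by which endothelium recruits mural cells, had 68.6, 50.5 and 61.6 CPM in Sox17 libraries at day 7 and 7.70, 6.53 and 7.87 CPM at day 3, with 0 to 0.167 CPM in control libraries. Its change was 4.11 ± 0.68, and 5.34 without replicate 2 of control at day 7.

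Of 11 venous and lymphatic genes, 4 were lower and 1, Flt4, higher, with a median of -0.94 (5 and 2 without replicate 1 of Sox17 at day 7). Flt4, the VEGF receptor of lymphatic endothelium, had 64.7, 189 and 169 CPM in Sox17 libraries at day 7 and 19.8, 19.6 and 20.5 CPM at day 3, against 37.2, 43.3 and 39.3 CPM in control at day 7 and 21.8, 22.5 and 21.9 CPM at day 3. At day 3 its Sox17 libraries were all below control by a small amount, at day 7 all above it, and the change was 1.96 ± 0.34. Of 24 endothelial transcription factors, 3 were higher (Klf2, Klf4 and Bcl6b) and 4 lower (Lmo2, Nr2f2, Foxc1 and Meox2), with a median of -0.10. Without replicate 1 of Sox17 at day 7, 4 were higher and 4 lower, and the median was 0.12. Klf2, a transcription factor that endothelium induces under flow, had 48.9, 34.1 and 34.5 CPM in Sox17 libraries at day 7 and 18.3, 19 and 20.4 CPM at day 3, against 15.6, 16.2 and 19.1 CPM in control at day 7 and 44.6, 48.5 and 54.0 CPM at day 3. Its Sox17 effect was 1.21 at day 7 and -1.35 at day 3, both called, a change of 2.56 ± 0.20 (adjusted p = 3.18e-08).

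Read by the effect itself, 736 of the 2113 changes were effects that appeared, being called at day 7 and not at day 3 (479 higher and 257 lower). Another 311 faded, being called at day 3 alone, 635 grew and 269 shrank while keeping their sign, and 148 turned round, with opposite calls at the 2 days (103 higher and 45 lower). The other 14 were called at neither day. Ccnd1 (mm10 chr7:144929931-144939925, minus strand), the cyclin that carries growth signals into the G1 phase, was among those that faded. It had 570, 739 and 677 CPM in Sox17 libraries at day 7 and 184, 194 and 195 CPM at day 3, against 596, 660 and 713 CPM in control at day 7 and 778, 699 and 767 CPM at day 3. The groups overlapped at day 7 and were wide apart at day 3, and the move of 1.79 was in Sox17 cells, for a change of 1.98 ± 0.12 (adjusted p = 1.39e-09). Gdf15, a stress-induced cytokine and p53 target, faded in the same way, with 39.2, 21.5 and 21.4 CPM in Sox17 libraries at day 7 and 6.81, 5.97 and 6.06 CPM at day 3, against 19.3, 26.7 and 29.0 CPM in control at day 7 and 24.2, 22.5 and 27.5 CPM at day 3.

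Adamts15 (mm10 chr9:30899155-30922452, minus strand), a secreted protease that cleaves proteoglycans, had the widest change among the named genes that turned round. It had 1.32, 2.51 and 2.61 CPM in Sox17 libraries at day 7 and 12.4, 12.4 and 10.5 CPM at day 3, against 71.2, 52.6 and 51.5 CPM in control at day 7 and 6.03, 7.48 and 9.47 CPM at day 3. Sox17 lay above control at day 3 and below it at day 7, without overlap at either day, and the change was -5.40 ± 0.36 (adjusted p = 5.25e-09). The Sox17 effect was 0.62 at day 3, called by a narrow margin (edgeR adjusted p = 0.0486), and -4.78 at day 7. Cdo1, the cysteine dioxygenase that starts taurine synthesis, had 9.67, 6.74 and 6.73 CPM in Sox17 libraries at day 7 and 21.3, 22.4 and 22.6 CPM at day 3, against 77.7, 67.1 and 65.7 CPM in control at day 7 and 10.2, 13.0 and 12.2 CPM at day 3. It also moved in both kinds of cells in opposite directions (change -4.09 ± 0.20).

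Several smaller lists leaned one way in their called members. Of 22 immediate early genes, which respond within minutes to growth factors or handling, 9 (40.9%) were higher and none lower, with a median of 0.48. Fos had 120, 158 and 183 CPM in Sox17 libraries at day 7 and 56.6, 57.6 and 46.9 CPM at day 3, against 90.2, 93.3 and 105 CPM in control at day 7 and 77.0, 80.5 and 72.0 CPM at day 3, a change of 1.18 ± 0.19; Sox17 lay above control at day 7 and below it at day 3. Ier2 had 344, 123 and 130 CPM in Sox17 libraries at day 7; its change was 1.39 with replicate 1 and 0.73 without it. Egr3, a zinc finger transcription factor, had 6.13, 19 and 17.3 CPM there, and its change was 1.62 with replicate 1 and 1.99 without it.

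Of 17 integrins, the receptors for matrix, 7 were higher (Itga3, Itga4, Itga5, Itga7, Itga9, Itgb4 and Itgb5) and 1, Itga2, lower, with a median of 0.34. The call of Itga4 was lost in 10 of 12 fits that left out 1 library, all but those without replicate 1 of Sox17 at day 7 or at day 3. The call of Itga2 was lost in 8 of 12, those without any 1 control library and those without replicate 1 or 2 of Sox17 at day 3; without replicate 1 of Sox17 at day 7 the list had 8 higher and 2 lower. Itga7, a laminin receptor of muscle, had 127, 94.9 and 107 CPM in Sox17 libraries at day 7 and 82.5, 80.8 and 80.7 CPM at day 3, against 6.92, 8.5 and 8.80 CPM in control at day 7 and 17.5, 18.8 and 18.1 CPM at day 3, and changed by 1.60 ± 0.14. Lama5, a laminin chain of basement membrane, had 44.5, 58.3 and 78.9 CPM in Sox17 libraries at day 7 and 21.4, 21.9 and 19.4 CPM at day 3, against 16.0, 17 and 15.5 CPM in control at day 7 and 18.1, 20.5 and 21.4 CPM at day 3; its effect was not called at day 3 and its change was 1.84 ± 0.23.

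Of 23 p53 targets and CDK inhibitors, 7 were higher and 2 lower (median 0.22), so inhibitors of the cell cycle were among the genes with a higher effect too. Without replicate 1 of Sox17 at day 7, 7 were higher and 3 lower, and the median was -0.02. Among those higher with all libraries, Cdkn2a lost its call in 9 of 12 fits that left out 1 library. Cdkn1c, the CDK inhibitor p57, had 27.7, 12.9 and 14.6 CPM in Sox17 libraries at day 7 and 4.24, 5.24 and 4.76 CPM at day 3, against 72.3, 68.8 and 74.5 CPM in control at day 7 and 53.6, 65.1 and 62.7 CPM at day 3. It stayed below control at both days and by less at day 7 (change 1.71 ± 0.27, or 1.28 without replicate 1 of Sox17 at day 7). Of 19 genes of the unfolded protein response, 4 were higher and none lower (median 0.26), and control alone moved for all 4. Their changes ran from 0.32 (Hspa5) to 0.94 (Sdf2l1). All 4 lost their call with only the 12 libraries of Sox17 and control, and Sdf2l1 also in 6 of 12 fits that left out 1 library.

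**Figure D4:**
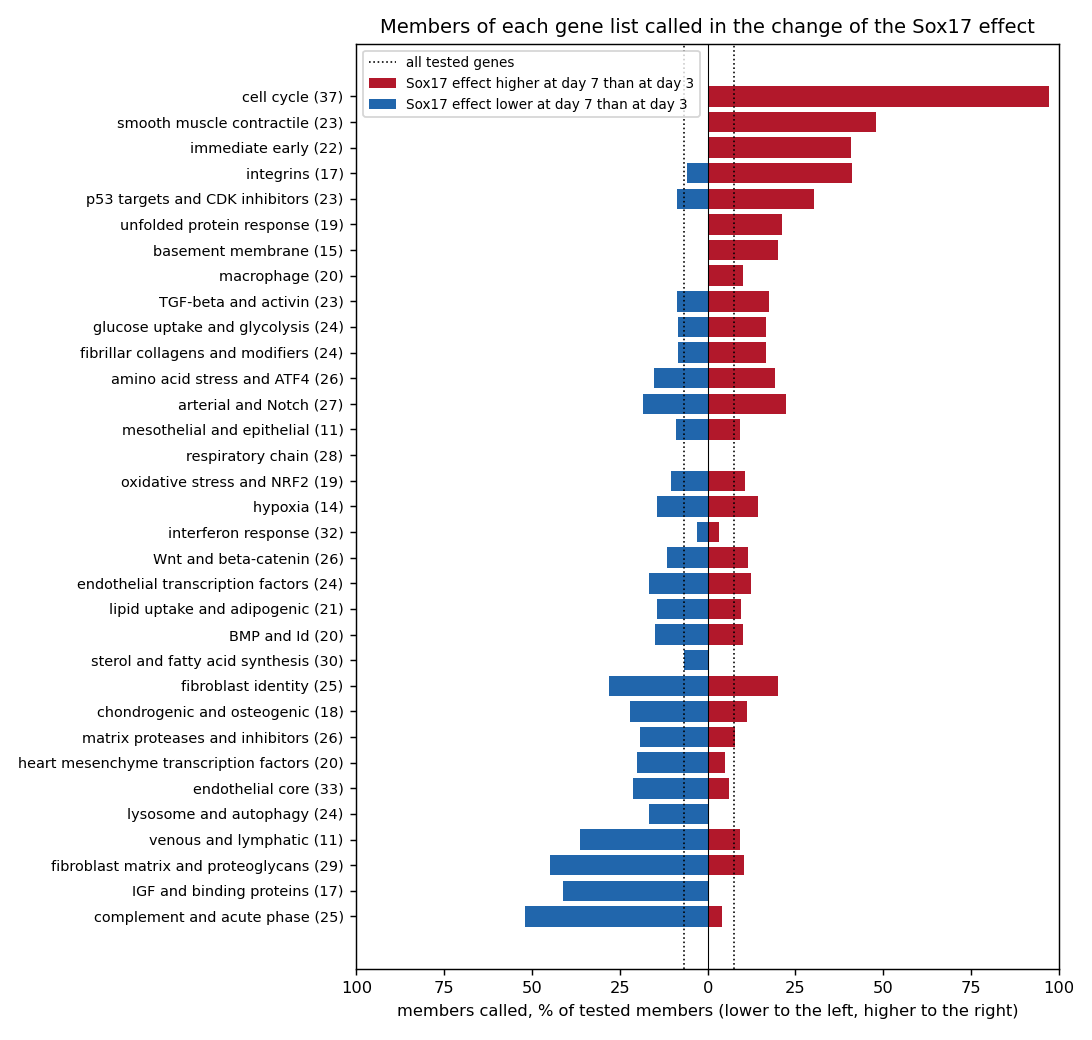
Share of the tested members of each gene list with at least 10 tested members (number in brackets) for which the Sox17 effect was higher at day 7 (red, to the right) or lower (blue, to the left), with dotted lines at the shares over all tested genes, 7.61% and 6.66%. Cell cycle (97.3% higher) and complement and acute phase (52.0% lower) stand at the ends.

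Other lists had few called members or were split in direction. Of 32 interferon response genes, 24 rose in Sox17 cells and 27 in control cells, and 1 was higher (Ifi27, 1.60) and 1 lower (Irf7, -1.53) in the change; Irf7 lost its call in 10 of 12 fits that left out 1 library, all but those without replicate 1 of Sox17 at day 7 or at day 3. Of 30 genes of sterol and fatty acid synthesis, 27 fell in Sox17 cells and 28 in control cells. Of 28 respiratory chain genes none was called; 6 passed at an unadjusted p under 0.05 and DESeq2 called 3. Wnt and beta-catenin genes counted 3 of 26 higher and 3 lower. Hypoxia genes counted 2 of 14 higher and 2 lower (4 and 2 without replicate 1 of Sox17 at day 7), and NRF2 targets 2 of 19 and 2 (3 and 4 without it). TGF-beta and activin genes counted 4 of 23 higher and 2 lower (7 and 3 without it), and among them Tgfbr2, the type II receptor, changed by -1.39. BMP and Id genes counted 2 of 20 higher and 3 lower (3 and 5 without it).

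Markers of other cell types that a heart culture could hold were mostly low. The sum of 5 macrophage markers was 14.1 to 18.7 CPM in Sox17 libraries at day 7 and 6.99 to 8.09 CPM at day 3, against 14.3 to 18.4 CPM in control at day 7 and 11.5 to 12.6 CPM at day 3. It was thus higher at day 7 in both kinds of cells. Of 20 macrophage genes 2 were higher in the change (Csf1r and Lyz2) and none lower; Lyz2 lost its call in 9 of 12 fits that left out 1 library, without replicate 1 of Sox17 at day 7 among them. The part of these cells in the immune and complement results was not tested. Over the 12 libraries the T cell marker Cd3e had 0 counts, the Schwann marker Sox10 had 2 counts, and the cardiomyocyte markers Myh6 and Actn2 had 10 and 5 counts. Tnnt2, a troponin, had 72.8, 20.5 and 24.8 CPM in Sox17 libraries at day 7 and 10.3, 9.71 and 12.5 CPM at day 3, against 82.2, 73.5 and 93.2 CPM in control at day 7 and 56.5, 52.4 and 54.5 CPM at day 3. Its change of 1.26 was not called (adjusted p = 0.0624), and it was 0.46 without replicate 1 of Sox17 at day 7. None of the 5 cardiomyocyte genes tested and none of 6 genes of other blood cells was called; 1 of each passed at an unadjusted p under 0.05, and DESeq2 called 1 of each.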

How the data were processed

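Messenger RNA was sequenced in bulk from 24 libraries of mouse heart fibroblasts in EGM2, 12 of which (Sox17 and control, day 7 and day 3, 3 each) enter the contrast. The authors deposited whole-number counts per gene, not normalized. The submitters' processing notes name Salmon, DESeq2 and mm10; versions, strand setting and any rounding were not given in the sources used here, so values of overlapping genes and of close copies are uncertain.

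The fit used edgeR 4.0.16 (R 4.3.3, limma 3.58.1; filterByExpr, minimum count 10; TMM scaling; 8 group means over all 24 libraries, which share the estimate of the spread). CPM uses TMM-scaled library sizes, and CPM of different genes are not corrected for length. Log2 changes are from edgeR's fit at its prior count of 0.125. Tests were 2-sided. GENCODE's annotation of mm10 gave coordinates, and 35493 of 35727 identifiers had a symbol.

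Members of 38 gene lists were counted with no set test. Named genes were Sox17, the 10 widest changes in each direction and 4 per class and direction among genes called with and without replicate 1 of Sox17 at day 7 and reaching 10 CPM, such genes at 3 counts or fewer in a group, up to 4 called members of a list by size, and up to 3 each lost or gained without that library; genes given besides were chosen after their values were seen. Members, lists and rules were chosen with earlier results of these data known. As alternatives, RLE size factors, no filter, DESeq2 1.42.0, replicate blocks, fits of fewer libraries, a test beyond 1.5-fold and leaving out each library were run. The test was also run on simulated counts, drawn with the spread usual for a gene's level, without a spread of each gene's own and without an outlying library. It called 56 of 100 genes made to differ 2-fold and all of 100 made to differ 4-fold, and 7 of the 14804 were falsely called. Genes of low level were not made to differ. These rates hold for such counts and were not measured for the real libraries. Some results are not reported here. Same-numbered libraries of the Sox17 and control groups did not deviate together (18 pairs, r from -0.305 to 0.0619). Tables and figures were made with pandas 2.3.3 and matplotlib 3.10.9 in Python 3.11.15.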

Additional observations from a re-analysis of the deposited data

Results flagged for a closer look

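The Sox17 effect differed between day 7 and day 3, by the test of the difference itself, for 1127 genes with a higher and 986 with a lower effect at day 7. Among the genes named, 14 had called effects of opposite sign at the 2 days. Their changes were 2.97 for Mxd3, 2.56 for Klf2, 2.15 for Nuf2, 1.39 for Ier2, 1.24 for Itga9, 1.18 for Fos and 1.09 for Nr4a1 on the rising side. On the falling side they were -5.40 for Adamts15, -5.05 for Ngfr, -4.09 for Cdo1, -2.26 for Col28a1, -1.56 for Stc2, -1.39 for Tgfbr2 and -0.92 for Egln3. The change of Ier2 was 0.73 without replicate 1 of Sox17 at day 7, and that of Ngfr was -5.71 without replicate 2 of that group. Groups of 3 libraries are too small for a test of single outlying libraries.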

How the results depend on the processing

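With all libraries, 1127 genes were higher and 986 lower, and 561, 908, 220, 358 and 66 fell into the classes Sox17 cells alone, control alone, opposite, same direction and neither. Scaling by RLE, DESeq2 and leaving out the low-count filter kept 97.6%, 99.5% and 80.6% of these calls. Fewer were kept by a replicate block within each condition (60.7%), only the 12 libraries of Sox17 and control (52.8%) and a test beyond 1.5-fold (30.2%). Same-numbered libraries of the Sox17 and control groups did not deviate together, and pairs with Erg or SEG libraries were not read. A replicate block over all libraries gave 1066 higher and 955 lower and kept 93.8%; a replicate block within each condition, which uses up more degrees of freedom, gave 702 and 584, with classes of 336, 591, 144, 203 and 12. Only the 12 libraries of Sox17 and control gave 568 and 561 (284, 529, 126, 176 and 14), and 1759 and 2144 (843, 1409, 505 and 1074 in the first 4 classes) once Sox17 day 7 replicate 1 was also left out. A test of changes beyond 1.5-fold, stricter by construction, gave 352 and 286 (172, 340, 23 and 19). Leaving out replicate 1 of both Sox17 and SEG at day 7 gave 2042 and 1653 (control alone 1377, opposite 458, same direction 1018). Leaving out 1 library at a time gave 860 to 1941 higher and 732 to 1387 lower, with classes of 402 to 1194, 643 to 1150, 170 to 348, 245 to 672 and 37 to 165. Shifts beyond 1.5 times came without Sox17 day 7 replicate 1 (opposite 348, same direction 672), replicate 2 (Sox17 cells alone 863, neither 129) and replicate 3 (higher 1941, Sox17 cells alone 1194, neither 165), and, for neither, without Sox17 day 3 replicate 1 (39) or 2 (37) or control day 7 replicate 1 (43) or 2 (42). The cause was not tested. Of 3780 values of the 180 named genes under these settings, 3305 kept their direction and side of the threshold, 450 fell below it, 25 passed it and 0 changed sign. With only the 12 libraries of Sox17 and control, 58 of the 173 called named genes lost their call. Kdr, Chtf8, Jag2, Pi16, Ier2 and Egr3 were among them. A replicate block within each condition lost 49 calls, and the test beyond 1.5-fold lost 70. Genes near 0 in a group are limited by depth.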

Other observations

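Values of some lipid handling, retinoid and matrix genes were not given above. Of 21 tested genes of lipid uptake and adipogenesis, 2 were higher (Fabp5, 1.73, and Cebpb, 1.12) and 3 lower (Lpl, Angptl4 and Klf15). The median was -0.13. Without replicate 1 of Sox17 at day 7, 2 were higher and 9 lower. The retinoid genes named went both ways, Aldh1a2 lower and Crabp1, given above, higher (4.19). Lpl, the lipase that frees fatty acids from lipoproteins, had 84.9, 55.1 and 63.6 CPM in Sox17 libraries at day 7 and 370, 367 and 347 CPM at day 3, against 500, 440 and 458 CPM in control at day 7 and 611, 681 and 632 CPM at day 3. It fell in both kinds of cells, by 2.41 with Sox17 and by 0.46 in control, for a change of -1.95 ± 0.16. Aldh1a2, which makes retinoic acid, had 0.885, 0.846 and 1.17 CPM in Sox17 libraries at day 7 and 10.5, 12.3 and 11.4 CPM at day 3, against 27.6, 26 and 22.7 CPM in control at day 7 and 47.8, 41.7 and 46.9 CPM at day 3. No 2 groups overlapped, and the change was -2.73 ± 0.16. Thbs2, a matrix protein that restrains angiogenesis, had 1373, 2384 and 2284 CPM in Sox17 libraries at day 7 and 4761, 5074 and 4751 CPM at day 3, against 1311, 1217 and 1118 CPM in control at day 7 and 660, 696 and 686 CPM at day 3. It stayed higher with Sox17 at both days and changed by -2.11 ± 0.20.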
